A study of Homo sapiens with 8 samples.

Results

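The suppressor of cytokine signaling (SOCS) family comprises SOCS1 to SOCS7 and CISH, and all 8 genes were found among the 20219 distinct gene symbols of the table, by the symbol printed for each feature and without regard to the values. Each gene was measured by 1 gene-level feature. Expression was profiled in MIV-Luc cells, which are MCF10CA1a basal-like breast cancer cells carrying a luciferase reporter. Every group had been transduced with a lentiviral pLKO vector and selected with puromycin as a population of cells, so that the control cells also carried a hairpin, a scrambled sequence (shSCR), while the knockdown cells carried 1 hairpin against the interleukin-13 receptor IL13Rα2 (shIL13Rα2#2). The 4 groups were shSCR mock-treated, shSCR given IL-13 (at 20 ng/ml, over 16 h), shIL13Rα2#2 mock-treated, and shIL13Rα2#2 given IL-13 in the same way. Each group had 2 arrays, 8 in all, which the methods describe as biological replicates, and all cells were kept in medium with horse serum, insulin, EGF and hydrocortisone. Because each construct was represented by a single hairpin population, the knockdown and the population that carried it cannot be told apart.

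SOCS proteins are the classical negative feedback arm of cytokine signaling. A cytokine such as IL-13 engages its receptor, JAK kinases phosphorylate the receptor tails and the STAT transcription factors (STAT6 for IL-13 and IL-4), and activated STATs switch on SOCS genes in many cell types. The proteins share a central SH2 domain, which binds phosphotyrosine, and a C-terminal SOCS box, which recruits elongins B and C and cullin 5 to form a ubiquitin ligase. SOCS1 and SOCS3 also carry a kinase inhibitory region that blocks JAKs directly. CISH and SOCS2 are best known as brakes on STAT5 and growth hormone signaling, SOCS5 has been linked to the IL-4 receptor, and SOCS4, SOCS6 and SOCS7 act mostly on receptor tyrosine kinase and insulin signaling. The comparisons therefore asked whether the feedback genes of this pathway moved with its ligand, with loss of one of its receptors, or with both, at 16 h. Earlier and later times were not measured.

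Promoter windows of 300 bases, from 250 bases before to 50 bases after the annotated start (RefSeq, GRCh38.p14), were found for 5 of the 8 genes, with 6 windows because SOCS3 had 2. They were searched for the letters that STAT dimers are known to bind, TTCNNNGAA and, for the wider spacing favoured by STAT6, TTC and GAA with 4 bases between them. Both patterns read the same on either strand and a match to one is not a match to the other, since the gap is 3 bases in the first and 4 in the second. The CISH window, at chr3:50611725-50612024 on the minus strand, is shown with its 4 matches to TTCNNNGAA in capitals, because CISH had the largest log2 difference of the family with IL-13 in shSCR cells. The SOCS1 window, at chr16:11256155-11256454 on the minus strand, is shown for contrast as that of the best known JAK inhibitor of the family and holds 0 matches.
CISH: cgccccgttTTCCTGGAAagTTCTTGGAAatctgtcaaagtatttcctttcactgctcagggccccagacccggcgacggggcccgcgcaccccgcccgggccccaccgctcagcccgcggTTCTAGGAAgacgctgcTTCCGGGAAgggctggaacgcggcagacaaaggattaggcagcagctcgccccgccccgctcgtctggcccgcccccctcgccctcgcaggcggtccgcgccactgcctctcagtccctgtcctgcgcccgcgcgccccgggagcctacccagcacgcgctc
SOCS1: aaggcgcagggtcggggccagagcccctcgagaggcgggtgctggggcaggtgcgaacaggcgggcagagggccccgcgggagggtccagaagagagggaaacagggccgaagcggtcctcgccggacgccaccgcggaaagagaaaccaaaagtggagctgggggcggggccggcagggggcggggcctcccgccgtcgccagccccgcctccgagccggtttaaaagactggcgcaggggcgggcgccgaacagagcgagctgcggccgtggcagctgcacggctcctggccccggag

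The 4 matches in the CISH window were TTCCTGGAA, TTCTTGGAA, TTCTAGGAA and TTCCGGGAA, at window bases 10, 21, 122 and 139. The windows of SOCS1, SOCS3, SOCS4 and SOCS6 held 0 matches to TTCNNNGAA, and none of the 6 windows held the wider pattern. Among all 35116 windows of the same length, 7.66% held at least 1 TTCNNNGAA, 6.44% held at least 1 of the wider pattern, and 7 windows (0.0199%) held 4 or more of the first pattern. These are matches of letters in a short window, and no binding was measured.

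The arrays were checked before the family was read. IL13RA2, the decoy-type receptor that the hairpin targets, was 8.07 and 8.09 on the 2 mock shSCR arrays, 9.36 and 9.33 with IL-13, 6.52 and 6.34 in mock knockdown cells, and 8.23 and 8.15 in knockdown cells with IL-13 (log2 RMA expression). It was lower in knockdown cells by 1.65 without and 1.16 with IL-13 (adjusted p = 0.0105 and 0.0241, limma), and it rose with IL-13 by 1.27 in shSCR and 1.76 in knockdown cells (adjusted p = 0.0135 and 0.0026). Knockdown cells treated with IL-13 held IL13RA2 at a mean of 8.19, beside 8.08 in mock shSCR cells. The log2 differences kept their direction with any 1 array left out, but the pairwise calls rest on few arrays: only that for IL-13 in knockdown cells held in every case, while the adjusted p reached 0.160 for IL-13 in shSCR cells and 0.157 for the knockdown in mock-treated cells when any 1 of the 4 arrays compared was left out, and was 0.0780 to 0.214 for the knockdown among IL-13-treated cells without any 1 of the 8. Over both constructs or both treatments IL13RA2 stayed called, at an adjusted p of at most 0.0157. Pearson correlations across features were 0.992 to 0.993 within groups and 0.988 to 0.993 between them, and array medians ran from 5.02 to 5.06. Group means of all 12 epithelial markers were above the median of the negative-control features, at 4.90 to 12.0 (EPCAM 11.9 to 12.0). This is not a detection call. PTPRC of leukocytes, LUM of fibroblasts and VWF of endothelium were below that median, at 2.39 to 2.62, 2.30 to 2.47 and 3.81 to 3.90. Not all markers of other cell types were that low: the endothelial genes CDH5 and PECAM1 were between 4.47 and 4.72 and between 7.77 and 8.82, and CD68 of the 7 leukocyte markers was lower in knockdown cells, 6.72 to 6.80 beside 7.19 to 7.26 in shSCR cells. KRT18, an epithelial keratin, was also lower there, 8.81 and 8.82 beside 9.37 and 9.46. TP63, a transcription factor of basal epithelium, went the other way, at 4.96 in mock shSCR cells, 6.05 in shSCR cells with IL-13, 6.15 in mock knockdown cells and 6.74 in knockdown cells with IL-13, and it was called between the first and last of these (1.78, adjusted p = 0.00969, limma). The part of these markers in the family's values was not tested.

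None of the 8 SOCS family genes differed between groups by the call used here, an adjusted p under 0.05 and a change of more than 2-fold, in any of 8 comparisons by limma. The analysis of variance of the methods was also applied without their false discovery rate condition, at an unadjusted p under 0.05 and more than 2-fold. It called 0 of the 8 genes, except for the interaction (no fold required), where it called SOCS4. In bulk RNA a lower level in every cell and fewer cells expressing a gene cannot be told apart. The moderated F test over the 4 groups gave adjusted p values between 0.561 and 0.904 for the family, against 0.292% of all 29141 tested features passing it. Group means of single genes spread over 0.13 to 0.44 log2 units from lowest to highest, with a median of 0.24 where the median feature of the array spread over 0.25. Values lay between 4.64 and 7.45, all 64 above the median of the negative-control features on the same arrays (4.12 to 4.38). None of the 64 was above the 95th percentile of those controls (9.41 to 9.74), so this percentile gave no detection call, and levels of different features are not set against each other.

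CISH, the founding member of the family and a STAT5-induced brake on cytokine receptors, gave the largest difference with IL-13. It was 5.07 and 4.88 on the mock shSCR arrays and 5.26 and 5.36 on the shSCR arrays with IL-13. In knockdown cells it was 5.06 and 5.02 without IL-13 and 5.01 and 5.25 with it. Both IL-13 arrays of shSCR cells were above both mock arrays, while in knockdown cells the arrays of the 2 treatments overlapped. The log2 difference with IL-13 in shSCR cells was 0.33 ± 0.13 (SE, 95% confidence interval 0.04 to 0.63), a 1.26-fold change with an unadjusted p of 0.0306 and an adjusted p of 0.696 by limma. In knockdown cells it was 0.08 ± 0.13 (interval -0.21 to 0.38). The difference between these changes was -0.25 ± 0.18 (adjusted p = 0.989, limma), so the response of CISH was not shown to differ between the constructs. Over both constructs CISH was 0.21 ± 0.09 higher with IL-13 (unadjusted p = 0.0488, adjusted p = 0.569).

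These values are to be read against the whole array. With IL-13 in shSCR cells 1 of the 8 genes had an unadjusted p under 0.05, beside 6.79% of all features, and 0 were called, beside 0.0583% of all features. For the IL-13 effect over both constructs the counts were again 1 and 0, beside 8.73% and 0.0927%. In knockdown cells 0 of the 8 had an unadjusted p under 0.05 with IL-13, beside 6.93%, and 0 were called, beside 0.0618%. Groups of 2 arrays did not overlap with IL-13 for 2 genes in shSCR cells (CISH and SOCS4, both higher) beside 36.7% of features, and for 4 genes in knockdown cells (SOCS7 higher, SOCS3, SOCS4 and SOCS6 lower) beside 37.4%. With 2 arrays against 2, an exact permutation test cannot give a p below 0.333.

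SOCS1 and SOCS3, the members that inhibit JAKs directly, were not called with IL-13 in either construct. SOCS1 was 5.23 and 5.65 on the mock shSCR arrays and 5.31 and 5.38 with IL-13, then 5.12 and 5.37 in mock knockdown cells and 5.22 and 5.47 with IL-13. The mock shSCR arrays (SD 0.30) enclosed both IL-13 arrays of those cells. Its log2 difference with IL-13 over both constructs was 0.0035 ± 0.12 (interval -0.27 to 0.28, a change in signal of at most 1.21-fold either way). SOCS3 was 5.20 and 4.72, then 4.89 and 5.32 with IL-13 in shSCR cells, and 5.10 and 4.98, then 4.64 and 4.86 with IL-13 in knockdown cells. It had the widest spread between arrays of one group in the family (moderated SD 0.20 by limma). Its arrays overlapped in shSCR cells and were lower with IL-13 in knockdown cells. Its change with IL-13 was 0.15 ± 0.20 in shSCR and -0.28 ± 0.20 in knockdown cells (adjusted p = 0.931 and 0.823, limma).

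SOCS2, the regulator of growth hormone signaling, showed the largest difference of the family with the knockdown. It was 6.73 and 6.79 in mock shSCR cells and 6.35 and 6.29 in mock knockdown cells, 6.77 and 6.38 in shSCR cells with IL-13, and 6.34 and 6.51 in knockdown cells with IL-13. Without IL-13 both knockdown arrays were below both shSCR arrays, whereas with IL-13 the second shSCR array lay among the knockdown arrays. The knockdown difference in mock-treated cells was -0.44 ± 0.15 (interval -0.78 to -0.10), a 1.36-fold change with an unadjusted p of 0.0168 and an adjusted p of 0.427 by limma. Among IL-13-treated cells it was -0.15 ± 0.15 (adjusted p = 0.890), and over both treatments it was -0.30 ± 0.10 (unadjusted p = 0.0218, adjusted p = 0.363), with a range of -0.40 to -0.20 when any 1 array was left out. In mock-treated cells 1 of the 8 genes had an unadjusted p under 0.05, beside 9.51% of all features, and 0 were called, beside 0.0652%. Over both treatments these counts were 1 and 0, beside 11.3% and 0.0755%.

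SOCS5, which has been tied to the IL-4 receptor, was the family member with the cleanest order by construct. It was 6.42 and 6.35 in mock shSCR cells, 6.34 and 6.45 in shSCR cells with IL-13, 6.13 and 6.33 in mock knockdown cells, and 6.08 and 6.26 in knockdown cells with IL-13. All 4 knockdown arrays were below all 4 shSCR arrays, the lowest shSCR array and the highest knockdown array being nearly equal. The difference was -0.19 ± 0.09 (interval -0.39 to 0.01, unadjusted p = 0.0614, adjusted p = 0.470 by limma), a 1.14-fold change. It was the 1 gene of 8 whose arrays did not overlap between constructs, beside 7.13% of all features (3.87% with the knockdown arrays lower), and for IL-13 over both constructs there was none, beside 4.78%. Its change with IL-13 was 0.0077 in shSCR and -0.068 in knockdown cells.

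Group means of SOCS4, SOCS6 and SOCS7, which act mainly downstream of receptor tyrosine kinases, spread over 0.25, 0.13 and 0.17 from lowest to highest. SOCS4 was 7.03 and 7.13 in mock shSCR cells and 7.26 and 7.31 with IL-13, but 7.20 and 7.45 in mock knockdown cells and 7.08 and 7.10 with IL-13. Both arrays were higher with IL-13 in shSCR cells and both were lower with it in knockdown cells, by 0.20 ± 0.12 and -0.23 ± 0.12. Opposite orders of this kind without overlap were seen for 1 of the 8 genes and for 4.70% of all features. The interaction of knockdown and IL-13 was -0.44 ± 0.17 (interval -0.82 to -0.05, unadjusted p = 0.0310, adjusted p = 0.989 by limma). It was the 1 interaction of 8 with an unadjusted p under 0.05, beside 4.47% of all features, and no interaction was called on the whole array (0%).

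SOCS6 had the narrowest spread of the family. It lay between 7.09 and 7.33 on all 8 arrays, with group means from 7.15 in knockdown cells with IL-13 to 7.28 in mock knockdown cells. SOCS7 lay between 6.02 and 6.33, with group means from 6.10 to 6.27, and was highest in knockdown cells with IL-13. For SOCS7 the largest of its differences between groups was 0.17 ± 0.12, with IL-13 in knockdown cells (adjusted p = 0.820, limma). For SOCS6 it was -0.13 ± 0.11 in the same comparison (adjusted p = 0.860).

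The remaining comparisons of the design gave the same count. For knockdown cells with IL-13 against mock shSCR cells, 0 of the 8 genes were called and 0 had an unadjusted p under 0.05, beside 0.154% and 9.56% of all features, with SOCS2 lowest at -0.33 ± 0.15 (unadjusted p = 0.0537, adjusted p = 0.527, limma). The knockdown among IL-13-treated cells gave 0 and 0, beside 0.0515% and 7.07%. There 6 of the 8 differences were negative, led by SOCS3 at -0.35 ± 0.20, with a median of -0.16 for the family and 0.0019 for all features. Arrays did not overlap for 3 genes in the first of these comparisons, 4 in the second and 4 for the knockdown in mock-treated cells, beside 40.3%, 36.4% and 41.2% of all features. Signs differed between comparisons: 6 of the 8 differences were positive with IL-13 in shSCR cells and 4 for the knockdown in mock-treated cells. The share of negative differences over all features was not counted. These comparisons share arrays: the mock shSCR arrays enter 3 of the 5 pairwise contrasts, so their values are not separate observations.

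A p that misses the threshold does not show that levels were equal, but the intervals bound how far the measured signal could have differed. They do not bound the RNA level, since no detection call was made. Over all arrays SOCS3, CISH and SOCS1 averaged 4.96, 5.11 and 5.34, beside negative-control medians of 4.12 to 4.38. For the IL-13 effect over both constructs the 95% intervals of all 8 genes lay within a 1.5-fold change, the farthest bound being that of CISH at 0.42 (1.34-fold). For the knockdown effect over both treatments all 8 again lay within 1.5-fold, the farthest being SOCS2 at -0.54 (1.45-fold). In each of the 5 pairwise comparisons all 8 intervals lay within 2-fold, and 6 or 7 of them within 1.5-fold. For the interaction 7 of the 8 lay within 2-fold, since SOCS3 reached -1.08 (2.12-fold). These intervals are not adjusted for the number of genes and comparisons. They rest on the spread between the 2 arrays of each group, taken over all groups and moderated by limma toward that of all features. For its adjusted p to pass, a family gene would have needed a log2 difference of 0.93 to 1.70 with IL-13 in shSCR cells and of 0.55 to 1.00 over both constructs.

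**Figure D1:**
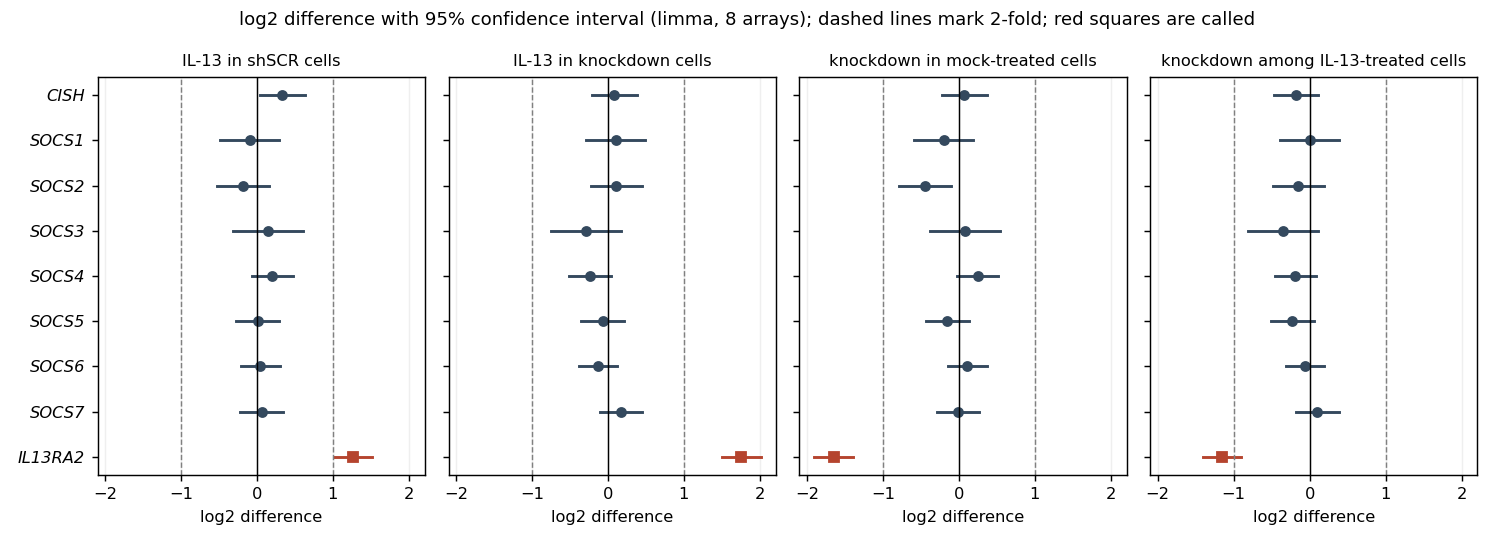
The log2 difference (x axis) of each SOCS family gene and of IL13RA2 in 4 comparisons, with 95% confidence intervals from limma over 8 arrays; dashed lines mark 2-fold and red squares are called genes. All intervals of the 8 family genes lie inside the dashed lines, while IL13RA2 lies at 1.27 and 1.76 with IL-13 and at -1.65 and -1.16 with the knockdown.

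Ordered by group mean, the family showed no common sequence of groups. Mock shSCR cells were highest for SOCS1 and SOCS2, shSCR cells with IL-13 for SOCS3, SOCS5 and CISH, mock knockdown cells for SOCS4 and SOCS6, and knockdown cells with IL-13 for SOCS7. Of the 24 steps between neighbouring groups in these orders, 6 were larger than the moderated SD of that gene. Of these steps 0 exceeded the 95% interval of a difference between groups of 2 arrays. The moderated SD was 0.11 to 0.20 for the family, with a median of 0.13 beside 0.14 for all features. It combines the spread within groups with a prior from all features, so it is not the plain SD between arrays.

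The pathway around the family was read from 7 lists of 101 genes, 99 of which are not family members. Of 18 genes that IL-13 and STAT6 are known to induce, 8 were called higher with IL-13 over both constructs and 0 lower. Over all features 0.0927% were called in either direction, and the list median was 0.12 beside 0.0084 for all features. The serpins SERPINB4 and SERPINB3, protease inhibitors of squamous epithelium, rose by 4.17 ± 0.12 and 3.58 ± 0.09, from 5.22 to 9.39 and from 7.28 to 10.9 (adjusted p = 1.19e-05 and 4.53e-06 by limma). TNFAIP6, an anti-inflammatory hyaluronan-binding protein, rose by 1.64, PDCD1LG2, the PD-L2 ligand, by 1.54, and CA2, carbonic anhydrase 2, by 1.46. SERPINB13 rose by 1.40 and CCL26, the eotaxin-3 chemokine, by 1.27, and IL13RA2 itself by 1.51. TNFAIP6 and SERPINB13 lost their call when control features were kept in the fit (adjusted p = 0.0952 and 0.0529, limma). The list also holds CISH and SOCS1, which were not called, and it shares IL13RA2 and IL4R with the receptor list. All 8 called genes are among those that the study listed as higher with IL-13 in shSCR cells from these same arrays. The list is therefore not independent evidence, nor a positive control for the family.

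The machinery the SOCS box recruits was read in the same way. Of 7 partners of the ubiquitin ligase (ELOB, ELOC, CUL5, RNF7, RBX1, UBE2F and NEDD8), 0 were called in any comparison, and their differences with IL-13 over both constructs ran from -0.16 for RNF7, the cullin 5 RING subunit, to 0.12 for UBE2F, its neddylation enzyme. None of the 7 had an unadjusted p under 0.05 for IL-13 over both constructs or for the knockdown over both treatments, beside 8.73% and 11.3% of all features. In none of the 8 comparisons were more than 0.154% of all features called. Counts of 0 called, here and in the lists below, are near that share and say little about the lists. Of 27 other SOCS box proteins, 0 were called in any comparison, and at an unadjusted p under 0.05 the effect of IL-13 was positive for 1 and negative for 4, and that of the knockdown positive for 1, beside 8.73% and 11.3% of all features in the 2 comparisons. The lowest p values with IL-13 among these were those of ASB4 (-0.42, adjusted p = 0.428), ASB16 (-0.41, adjusted p = 0.501), ASB3 (0.19, adjusted p = 0.519) and ASB9 (-0.43, adjusted p = 0.524), all substrate receptors of the ankyrin repeat type. WSB1 gave the lowest p with the knockdown (0.26, adjusted p = 0.391).

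Upstream of the family, 0 of 11 JAK kinases and STATs were called in any comparison, and at an unadjusted p under 0.05 there was 1 with IL-13 over both constructs and 2 with the knockdown over both treatments, beside 8.73% and 11.3% of all features. STAT6, the main transducer of IL-13, differed by -0.035 ± 0.08 with IL-13 and by -0.19 ± 0.08 with the knockdown (adjusted p = 0.943 and 0.440, limma). All 4 knockdown arrays of STAT6 were below all 4 shSCR arrays, as they were for 3.87% of all features. STAT4 had the lowest p of the list with IL-13 (0.26, adjusted p = 0.452). In the receptor chain of 8 genes IL13RA2 was the 1 called gene in the IL-13 and knockdown effects, beside 0.0927% and 0.0755% of all features. IL13RA1, the signaling receptor that pairs with IL4R, differed by -0.21 with IL-13 and by 0.18 with the knockdown (adjusted p = 0.505 and 0.433, limma).

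Other brakes on the pathway and other receptors the family is known to restrain were likewise not called. Of 12 phosphatases, PIAS proteins and adaptors, 0 were called (with 0 and 2 at an unadjusted p under 0.05 for IL-13 and the knockdown, beside 8.73% and 11.3% of all features), and CBL, a ubiquitin ligase for receptor kinases, came nearest at -0.39 ± 0.07 with the knockdown (adjusted p = 0.0993, limma), followed by the JAK2 adaptor SH2B3 at -0.22 (adjusted p = 0.316). Of 20 receptors 0 were called (with 2 and 4 at an unadjusted p under 0.05, beside the same 8.73% and 11.3%), where 0.0927% and 0.0755% of all features were called. LIFR, the receptor of leukemia inhibitory factor, whose signaling SOCS3 is known to limit, was 6.66 in shSCR and 5.79 in knockdown cells as means of 4 arrays, a difference of -0.88 ± 0.13. Its adjusted p was 0.0362, beside 0.446% of features with an adjusted p under 0.05 at any fold, but the change was under 2-fold, and with any 1 array left out the adjusted p was 0.0545 to 0.151. IGF1R was measured by 2 features, one 0.35 higher in knockdown cells (adjusted p = 0.137) and the other 0.11 higher (adjusted p = 0.694). PRLR, the prolactin receptor, differed by -0.51 with IL-13 (adjusted p = 0.263).

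The genes whose pattern over the 8 arrays was most like that of SOCS2 and CISH, the members with the lowest F test p, were found by the root mean square difference of mean-centred log2 values. For SOCS2, which itself varied by 0.20 around its mean, they were LOC283314 (0.053), SS18L2 (0.066), HIST1H2AM (0.068), ATP6V1F (0.070) and RNASEK (0.072). For CISH, which varied by 0.15, they were HELB (0.055), FRG2C (0.059), ZNF679 (0.062), COG5 (0.063) and ADAM12 (0.063). These are the closest of all single-symbol features over 8 arrays and are given as a description.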

How the data were processed

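Cells, hairpins and treatments were as described, with 2 arrays per group and 8 in all. The authors deposited 1 table of log2 expression values, summarised per gene by RMA (background correction, quantile normalization and probe summary) in Affymetrix Expression Console version 1, per the labels. No genome build was given in the sources used here. The 33297 features included 4156 controls, which were left out, and 29141 were tested with no filter on signal. Columns carry construct, treatment and a running number that is not the replicate number of the sample titles. The arrays of a group are therefore called A and B by column order.

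Group means were fitted to all 8 arrays by limma (version 3.58.1, R 4.3.3, 4 residual and 3.86 prior degrees of freedom), and p values were adjusted by the Benjamini-Hochberg method over 29141 features. A call required an adjusted p under 0.05 and more than 2-fold (for the interaction and F test, the adjusted p alone). A ± value is a standard error, and intervals are 95%. Precision is limited by the small number of arrays. The fit was checked on simulated data with 200 changed features. The genes named are the 8 members, IL13RA2, list genes with an adjusted p under 0.05, and some of those with the smallest p for IL-13 (up to 4 per list) and the knockdown (up to 2). Members and lists were chosen with earlier results of these data known, and list contents come from general knowledge, 2 genes being matched by an older symbol. Alternatives were the methods' analysis of variance, other priors, filters and normalizations, and each array left out. Promoters came from RefSeq (GRCh38.p14).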

Additional observations from a re-analysis of the deposited data

Results flagged for a closer look

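The change of SOCS4 with IL-13 was opposite in cells with the 2 constructs: both arrays were higher in shSCR cells and both were lower in knockdown cells. The interaction was -0.44 on the log2 scale (limma, unadjusted p = 0.0310, adjusted p = 0.989). It failed the adjustment, and listing a result on an unadjusted p was decided after the values were seen. With any 1 array left out the interaction was between -0.56 and -0.31. With 2 arrays per group no array could be examined as standing apart from its group.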

How the results depend on the processing

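No SOCS family gene was called under any of 10 other settings or with any of the 8 arrays left out, with 1 exception: SOCS4 was called for the interaction (1 gene, -0.44) by the methods' analysis of variance and by limma when the p was left unadjusted. No paired analysis was possible because the columns of the table carry no replicate numbers. Of the 64 differences of the family, 3 changed sign under another setting, all of them near 0: SOCS7 for the knockdown in mock-treated cells was 0.019 after a further quantile normalization, SOCS1 for the knockdown among IL-13-treated cells was -0.0050 after a shift of the arrays to one median and -0.0094 after quantile normalization, and SOCS1 for IL-13 over both constructs was -0.0027 after the median shift.

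With 1 array left out, 30 of the 64 changed sign, with these ranges of the log2 difference. For IL-13 in shSCR cells SOCS1 ran from -0.31 to 0.11, SOCS2 from -0.38 to 0.013, SOCS3 from -0.095 to 0.39, SOCS5 from -0.049 to 0.065 and SOCS7 from -0.033 to 0.15. For IL-13 in knockdown cells SOCS1 ran from -0.021 to 0.23, SOCS5 from -0.17 to 0.032 and CISH from -0.037 to 0.21. For the knockdown in mock-treated cells SOCS1 ran from -0.41 to 0.0088, SOCS3 from -0.16 to 0.32, SOCS7 from -0.086 to 0.066 and CISH from -0.025 to 0.17. For the knockdown among IL-13-treated cells SOCS1 ran from -0.12 to 0.12 and SOCS2 from -0.35 to 0.049. For knockdown cells with IL-13 against mock shSCR cells SOCS1 ran from -0.31 to 0.11, SOCS3 from -0.45 to 0.036, SOCS4 from -0.033 to 0.064 and SOCS6 from -0.070 to 0.046. For IL-13 over both constructs SOCS1 ran from -0.10 to 0.11, SOCS2 from -0.14 to 0.062, SOCS3 from -0.19 to 0.051, SOCS4 from -0.075 to 0.047 and SOCS5 from -0.081 to 0.020. For the knockdown over both treatments SOCS1 ran from -0.20 to 0.0045, SOCS4 from -0.032 to 0.091, SOCS6 from -0.00056 to 0.057, SOCS7 from -0.0013 to 0.092 and CISH from -0.11 to 0.0068. For the interaction SOCS1 ran from -0.0086 to 0.41 and SOCS5 from -0.18 to 0.024.

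The CISH difference with IL-13 in shSCR cells was 0.24 to 0.43 and the SOCS2 difference with the knockdown in mock-treated cells -0.48 to -0.41 with any 1 array left out. Of the 18 known targets, 8 rose with IL-13 over both constructs, 4 by the methods' analysis of variance with adjustment, and 6 or 7 with 1 array left out. Counts over all features moved more. With IL-13 in shSCR cells 17 features were called, 2 in a fit to the 4 arrays compared, 0 by the adjusted and 30 by the unadjusted analysis of variance, 56 by limma with the p unadjusted, 9 with control features kept, and 2 to 10 with 1 array left out. For the knockdown in mock-treated cells these were 19, 0, 0, 37, 62, 3 and 0 to 2, and 37 when the prior was robust and followed intensity. For IL-13 in knockdown cells they were 18, 2, 0, 34, 56, 7 and 3 to 11, and 32 with the trend. For the knockdown among IL-13-treated cells they were 15, 0, 0, 28, 50, 0 and 0 to 5, and 26 with the trend. For knockdown cells with IL-13 against mock shSCR cells 45 were called, 2 in the fit to 4 arrays, 0 by the adjusted analysis of variance, 96 with the p unadjusted, 83 at any fold, 70 with the trend and 2 to 38 with 1 array left out. IL-13 over both constructs called 27, 7 by the adjusted analysis of variance, 68 at any fold and 17 with controls kept, and the knockdown over both treatments 22, 4 and 130 in the first 3 of these. The interaction called 0, and 1284 and 1304 by the unadjusted analysis of variance and limma. The F test called 85, 1 and 2673 by the adjusted and unadjusted analysis of variance, 2741 with the p unadjusted, 560 with the trend, 177 without the dimmest 30% of features, 42 with controls kept and 21 to 36 with 1 array left out. The fit to 4 arrays and the adjusted analysis of variance both lost the calls of IL13RA2 in the 4 pairwise comparisons where it was called, with adjusted p values from 0.0801 to 0.740 at the same log2 differences. Keeping control features lost its call for the knockdown among IL-13-treated cells (0.0595). The cause was not tested.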
